A study of Drosophila melanogaster with 12 samples.

Results

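Among the genes of the fly that still carry only a computed-gene (CG) number, 49 were higher in Rbf and warts mutant eye discs of every genotype than in Canton S discs. They are 49 of 5209 CG-named genes and of 11982 genes measured with a named probe set. A gene was taken when its lowest signal on the 9 mutant arrays lay above its highest signal on the 3 Canton S arrays and each mutant group mean exceeded the Canton S mean by at least 0.5 on the log2 scale. Each gene was read from 1 probe set, the one with the highest mean over the 12 arrays. The genes were thus chosen by their measured difference between mutant and Canton S discs, so that difference is given below as a description without a test, and for these genes only differences among the mutant groups were tested.

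RNA came from eye discs of Drosophila melanogaster larvae in the third instar and was hybridised to Affymetrix arrays, 1 array per sample and 3 biological replicates per genotype. The genotypes were rbf120a wtsX1Lats, called the double mutant here, rbf120a, wtsX1Lats and Canton S, a wild-type strain. rbf120a is an allele of Rbf, the fly retinoblastoma family gene, and wtsX1Lats an allele of warts, the Hippo pathway kinase gene. The mutant discs were mosaic, with mutant cells making up most of the tissue. The labels do not give the strain background of the mutant chromosomes, the recombinase used to make mosaics, or the number of discs per sample. Allele and strain background therefore cannot be told apart in any difference from Canton S or between mutant genotypes. The p-values measure the spread between these samples.

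A CG number is given to a gene that was predicted from the genome sequence, and it stays in use until the gene is named for a function, a mutant or a homologue. Rbf binds E2F transcription factors and holds back genes of the cell cycle. Warts phosphorylates the co-activator Yorkie and keeps it out of the nucleus, which restrains growth. In the third instar eye disc a furrow sweeps across the tissue, with dividing cells ahead of it and differentiating photoreceptors and support cells behind it. All 49 genes are listed as protein-coding in the current RefSeq gene table (Release 6 plus ISO1 MT), and 0 of them have received another symbol there, though some have a synonym that names a protein family.

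The share that met the rule was 0.941% of the CG-named genes, against 1.52% of the genes with a name of their own (103 of 6773) and 1.27% of all genes. With the rule mirrored, 85 CG-named genes (1.63%) were lower in every mutant. The count of 49 depended on single arrays. Canton S replicate 2 was the highest of the Canton S arrays in 30 of the 49 genes. Without it 77 genes met the rule, 45 of them among the 49. Without wtsX1Lats replicate 1, 40 genes met the rule. Of these, 39 were among the 49, the fewest kept for any left-out array. Another 25 CG-named genes had all 3 mutant means at least 0.5 higher but overlapping arrays, led by CG2444, whose lowest mutant array (9.09) lay below its highest Canton S array (10.58). Just inside the threshold stood CG13775 and CG31793, both with a smallest difference of 0.50, and CG42329 with 0.52. Just outside stood CG4210 (0.498), CG7328 (0.488) and CG6693 (0.486).

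Marker genes were read for the tissue. The 5 eye disc markers (ey, so, eya, dac and Optix) averaged 10.2 to 10.8 on every array, and 2 of them were called higher in the double mutant than in Canton S, 0 in rbf120a and 1 in wtsX1Lats. Of 7 glia and neuroblast markers 4 were lower in the double mutant, 0 in rbf120a and 3 in wtsX1Lats, with medians of -0.59, -0.13 and -0.68. Of 9 blood cell markers 2, 4 and 3 were lower in the same order, with medians of -0.79, -1.49 and -0.56. Of 10 photoreceptor and cone cell markers 4, 0 and 4 were lower, with medians of -0.78, -0.18 and -0.89. Of all genes 3.26%, 1.71% and 3.33% were called lower than in Canton S, and 2.23%, 1.79% and 2.28% higher. Blood cell markers averaged 7.59 to 8.14 in the double mutant and 7.48 to 7.72 in rbf120a. They averaged 7.61 to 8.0 in wtsX1Lats and 8.34 to 9.12 in Canton S. The mean of 8 testis markers lay between 4.44 and 4.63 on all arrays. Photoreceptor and cone cell markers averaged 7.95 to 8.24, 8.55 to 8.76 and 7.70 to 8.39 in the 3 mutant groups in the same order, and 8.83 to 8.92 in Canton S. Muscle markers averaged 9.56 to 12.16 on the wtsX1Lats arrays and 10.55 to 11.98 on the Canton S arrays. On the array of wtsX1Lats replicate 3 the control probe sets for actin, for GAPDH and for eIF-4A had 3' minus 5' differences of 1.70, 1.81 and 1.90, against highest values of 0.82, 1.43 and 0.95 on the other 11 arrays. Whether cell makeup or RNA quality has a part in the differences below was not tested, and in discs taken whole fewer cells of a type and less RNA per cell cannot be told apart.

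The 49 genes were not dim as a set in Canton S. Their median signal was 8.14 in the double mutant, 8.07 in rbf120a, 8.08 in wtsX1Lats and 6.63 in Canton S, where all CG-named genes had medians of 5.67, 5.70, 5.68 and 5.70. The rule asks for higher signal in the mutants than in Canton S, so the mutant medians and the differences below describe chosen genes. In Canton S 36.7% of the 49 had a mean under 6, against 54.1% of CG-named genes. The differences from Canton S had medians of 1.03 in the double mutant, 1.10 in rbf120a and 1.02 in wtsX1Lats, where the medians over all genes were within 0.02 of 0. In 19 genes the smallest of the 3 differences was at least 1, and in 4 it was at least 2. The plot of all members by array shows the largest differences in its top rows and pale Canton S columns throughout.

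**Figure D1:**
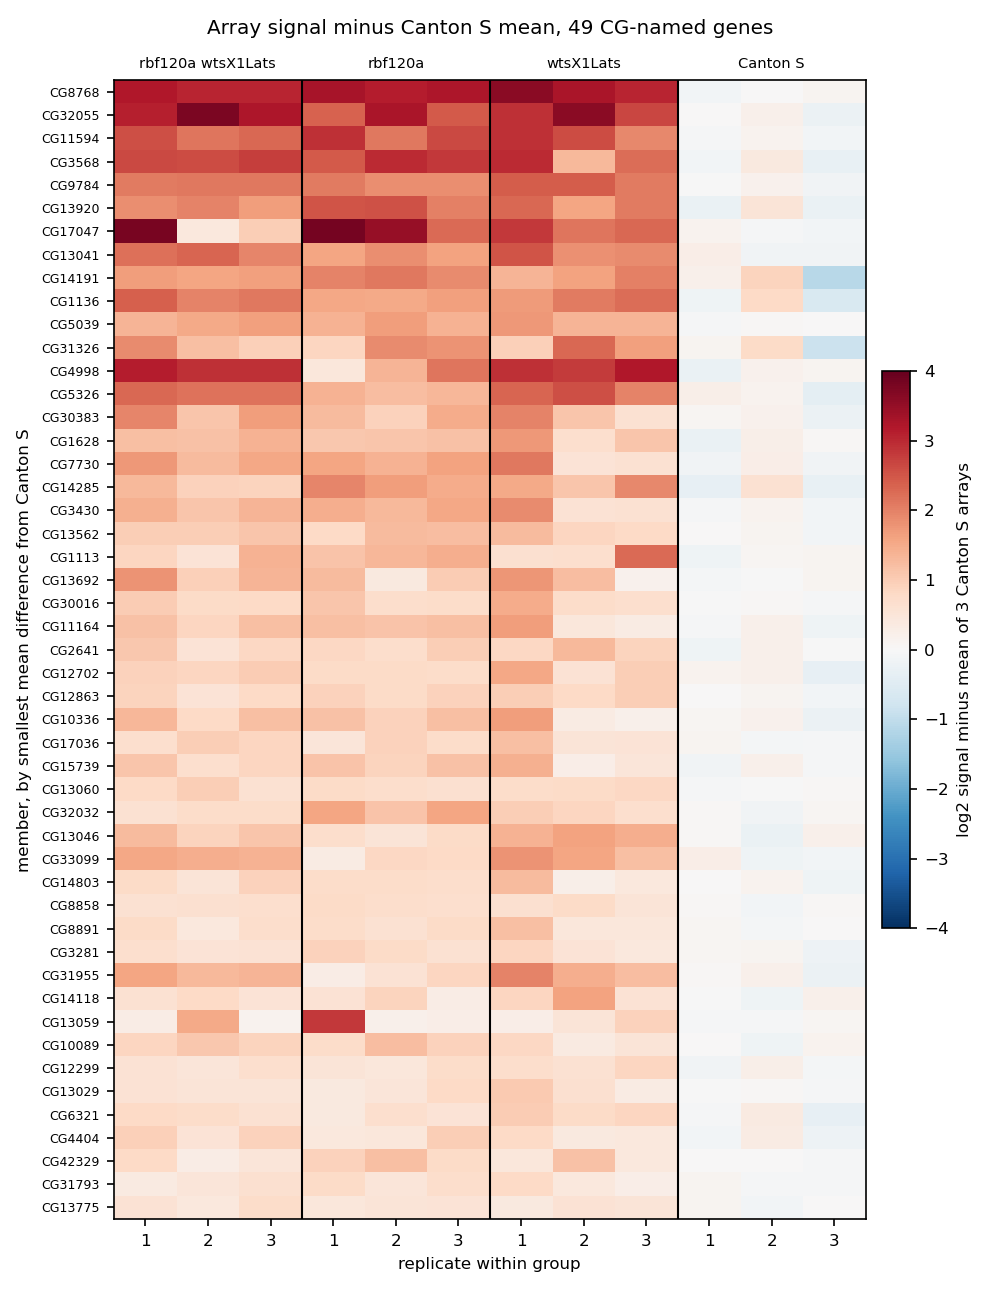
Signal of the 49 genes on each of the 12 arrays as log2 signal minus the mean of the 3 Canton S arrays, from blue (lower) to red (higher). Rows are ordered by the smallest of the 3 mean differences, largest at the top, and columns hold the double mutant, rbf120a, wtsX1Lats and Canton S arrays. The top row, CG8768, is about equally red on all mutant arrays, while CG17047, CG4998 and CG13059 differ from array to array.

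CG8768 (arm 2R) had the widest separation. It was at 8.75, 8.58 and 8.57 in the double mutant, 8.83, 8.67 and 8.78 in rbf120a and 9.15, 8.80 and 8.57 in wtsX1Lats, against 5.41, 5.54 and 5.65 in Canton S. Its lowest mutant array stood 2.92 above its highest Canton S array, and the Canton S mean of 5.53 is in the 35th percentile of all genes.

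CG32055 (3L), which encodes a leucine-rich repeat protein, was next. Its values were 8.11, 8.77 and 8.26 in the double mutant, 7.37, 8.28 and 7.46 in rbf120a, and 7.94, 8.62 and 7.67 in wtsX1Lats, against 5.02, 5.22 and 4.78 in Canton S. In each genotype replicate 2 was the highest of the 3 arrays, which holds for Canton S too. The Canton S arrays were in the range of dim genes, and every mutant array was more than 2 log2 units above them.

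CG11594 (3L) belongs to the FGGY family of carbohydrate kinases. It was at 7.64, 7.21 and 7.37 in the double mutant, 7.99, 7.18 and 7.70 in rbf120a and 8.0, 7.69 and 7.01 in wtsX1Lats, against 5.02, 5.22 and 4.98 in Canton S. The gene that follows it is Gr64a, a sugar taste receptor gene, which the rule left out since it has a name of its own. It is among 83 measured neighbours that were read, whose counts are given further on. Gr64a behaved alike: 6.89 ± 0.18 (SD, n = 3) in the double mutant, 6.68 ± 0.47 in rbf120a and 6.70 ± 0.12 in wtsX1Lats, against 4.66 ± 0.27 in Canton S. By limma, with adjustment over all genes, Gr64a rose by 2.23 ± 0.21 (SE; adjusted p = 0.000101), 2.02 ± 0.21 (adjusted p = 0.000291) and 2.04 ± 0.21 (adjusted p = 0.000229) in the 3 mutants in that order.

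CG9784 (X) encodes an inositol polyphosphate 5-phosphatase, an enzyme of phosphoinositide signalling. Its arrays lay close together, at 8.05, 8.08 and 8.07 in the double mutant, 8.04, 7.81 and 7.81 in rbf120a and 8.39, 8.40 and 8.05 in wtsX1Lats, against 5.96, 6.12 and 5.81 in Canton S. CG3568 (X) had 9.27, 9.23 and 9.40 in the double mutant, 9.08, 9.61 and 9.46 in rbf120a and 9.62, 7.91 and 8.87 in wtsX1Lats, against 6.54, 7.01 and 6.34 in Canton S. The 3 arrays of wtsX1Lats thus covered 1.7 log2 units for CG3568, more than all other mutant arrays together.

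CG13920 (3L) has the synonym NACHO, which in mammals names a membrane protein that assists assembly of nicotinic acetylcholine receptors. It was at 9.79, 9.90 and 9.60 in the double mutant, 10.44, 10.48 and 9.95 in rbf120a and between 9.49 and 10.23 in wtsX1Lats, against 7.67, 8.45 and 7.66 in Canton S. Canton S replicate 2 was the highest array of its group here, as it was for CG14191, CG1136 and CG31326. CG14191 (X) had mutant arrays between 9.40 and 10.16 and Canton S arrays at 8.25, 8.95 and 6.93. CG1136 (3L) had mutant arrays between 9.66 and 10.54 and Canton S arrays at 7.98, 8.96 and 7.54. For CG31326 (3R), a serine protease homologue also listed as SPH144, the mutant arrays ran from 8.22 to 9.66 and the Canton S arrays were at 7.46, 8.11 and 6.49, so that the groups were parted by 0.11.

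CG17047 (2R) met the rule through widely scattered arrays. It stood at 8.68, 5.31 and 5.86 in the double mutant, 8.71, 8.37 and 7.14 in rbf120a, and 7.69, 7.01 and 7.17 in wtsX1Lats, against 5.03, 4.82 and 4.78 in Canton S. The double mutant mean minus that of rbf120a was -1.46, which did not pass (limma adjusted p = 0.614). Replicate 1 of the double mutant was more than 2 log2 units above the other arrays of that genotype, which were nearer to Canton S than to any other mutant array. CG13059 (3L) was similar in that 1 rbf120a array was at 10.24 and the other two at 7.62 and 7.68. Its double mutant arrays were at 7.69, 8.92 and 7.54 and its wtsX1Lats arrays at 7.68, 7.93 and 8.34, against 7.37, 7.36 and 7.49 in Canton S.

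In other genes the mutant genotypes were nearly level. The range of the 3 mutant means was under 0.25 in 18 of the 49 genes, and its median was 0.36. CG5039 (3R) was the most even of the genes with large differences, at 8.66 ± 0.13 (SD, n = 3) in the double mutant, 8.64 ± 0.16 in rbf120a and 8.63 ± 0.21 in wtsX1Lats, against 7.16 ± 0.05 in Canton S. CG1628 (X), of the mitochondrial solute carrier family, had level means but scattered wtsX1Lats arrays. It averaged 7.41 ± 0.11, 7.28 ± 0.06 and 7.32 ± 0.53 (SD, n = 3 each) in the mutants in the same order, against 6.16 ± 0.25 in Canton S. Together with CG8768 and CG11594, CG5039 and CG1628 were the members with a smallest difference of at least 1 whose mutant means lay nearest to each other.

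The 3 members brightest in Canton S had small differences. CG12299 (2L), a C2H2 zinc finger gene, averaged 10.74 ± 0.11, 10.72 ± 0.15 and 10.89 ± 0.13 (SD, n = 3 each) in the double mutant, rbf120a and wtsX1Lats, against 10.16 ± 0.20 in Canton S. CG8891 (2L), the fly inosine triphosphate pyrophosphatase, which clears damaged nucleotides, averaged 10.39 ± 0.19, 10.47 ± 0.08 and 10.47 ± 0.44, against 9.77 ± 0.09. CG8858 (2R) is the homologue of the yeast proteasome adaptor Ecm29 and averaged 9.59 ± 0.03, 9.66 ± 0.04 and 9.59 ± 0.13, against 8.95 ± 0.09. The next brightest, CG13041 (Canton S mean 8.55), had larger differences, of 2.16, 1.68 and 2.07 in the same order. The zinc finger gene CG3281 (3R), less bright than these, averaged 8.93, 9.08 and 8.94, against 8.33 in Canton S.

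At the dim end 8 members had a mean under 6 over the 12 arrays: CG13029, CG10089, CG42329, CG1113, CG15739, CG4404, CG13060 and CG13775. CG10089 (3L), of the dual specificity phosphatase family, averaged 5.72, 5.74 and 5.35 in the double mutant, rbf120a and wtsX1Lats, against 4.78 in Canton S. CG15739 (X), listed with the phosphatase synonym Phos15739, averaged 5.97, 6.17 and 5.81, against 5.10. CG30016 (2R), of the family of 5-hydroxyisourate hydrolases that act in urate breakdown, averaged 6.27, 6.27 and 6.38, against 5.41. Dimness was read from the level alone, since no detection calls were used here.

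The remaining members with a smallest difference of at least 1 were CG30383, CG7730, CG14285 and CG3430, beside CG13041, CG4998 and CG5326, which are described further on. CG30383 (2R) had mutant arrays from 6.54 to 7.93 and Canton S arrays from 5.69 to 6.11. CG7730 (3L) had 7.17 to 8.72 and 6.49 to 6.89, CG14285 (3R) 7.04 to 8.10 and 5.84 to 6.78, and CG3430 (2L) 9.08 to 10.37 and 8.38 to 8.64, each with mutant arrays first. The other genes, with smallest differences from 0.50 to 0.97, were CG13562, CG13692, CG11164, CG2641, CG12702, CG12863, CG10336, CG17036, CG14803, CG14118, CG6321 and those named elsewhere in the text. CG31793 (2L), an ABC transporter gene, stood just inside the threshold with means of 7.32, 7.46 and 7.31 in the 3 mutants and 6.81 in Canton S.

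The mutant genotypes were then compared with each other. The rule did not ask for any order among the mutants, but it used all 9 mutant arrays and left out genes that were low in one of them. The counts below therefore describe chosen genes, and nothing is read from their shares beside those of all genes. Between the double mutant and rbf120a, 3 of 49 members passed (6.12%), 2 higher and 1 lower, against 0.676% of all genes, 0.342% higher and 0.334% lower. Of the 49, 14 had groups that did not overlap, against 23.3% of all genes. Between rbf120a and wtsX1Lats, 3 of 49 were lower and 0 higher, against 1.00% of all genes, 0.601% higher and 0.401% lower, and 9 had groups that did not overlap, against 18.5%. Between the double mutant and wtsX1Lats limma called 0 of 49, and 0 of all genes. At unadjusted p under 0.05 it had 2 of the 49 and 8.62% of all genes. With array weights it called 1 member, and the share of all genes in that fit was not counted. Between these 2 genotypes the groups of 2 members did not overlap, against 14.2% of all genes. Both comparisons with calls share the rbf120a arrays. The median difference over the members was -0.02, 0.00 and -0.01 for the double mutant minus rbf120a, rbf120a minus wtsX1Lats and the double mutant minus wtsX1Lats, beside 0.00, -0.01 and -0.02 over all genes.

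**Figure D2:**
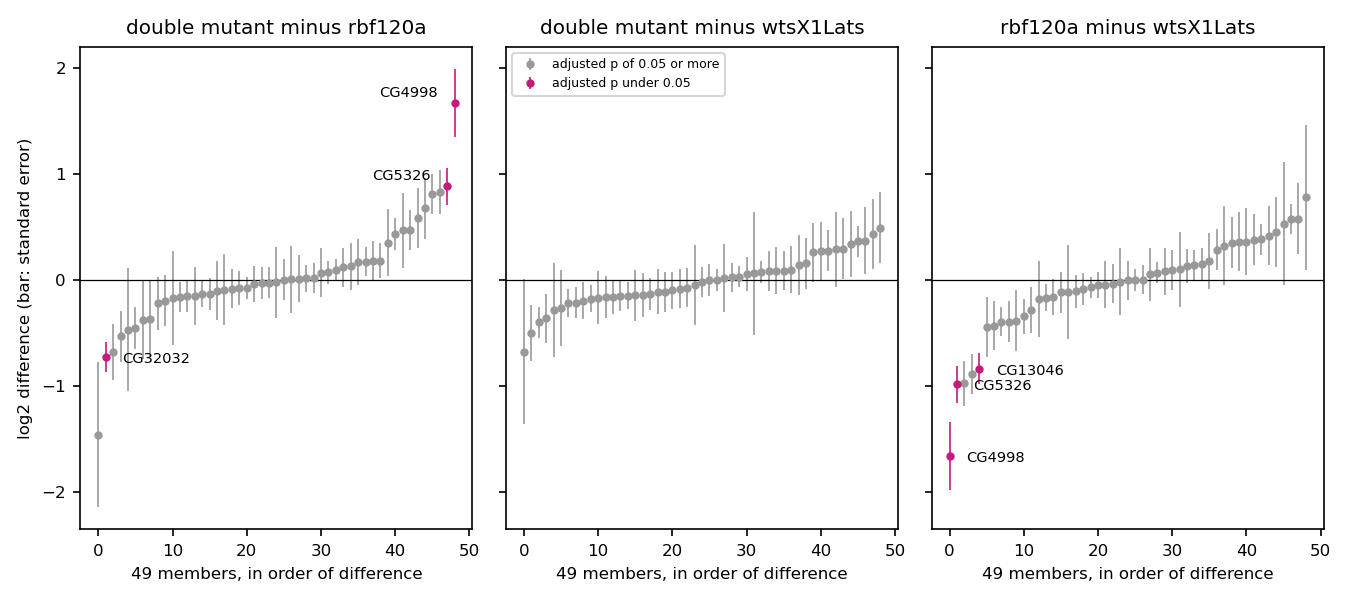
Differences in log2 signal between mutant groups for the 49 genes, each panel in its own order from lowest to highest, with standard errors as bars. Genes with adjusted p under 0.05 by limma are in pink and named: CG4998 (1.67), CG5326 (0.89) and CG32032 (-0.72) for the double mutant minus rbf120a, 0 genes for the double mutant minus wtsX1Lats, and CG4998 (-1.65), CG5326 (-0.98) and CG13046 (-0.83) for rbf120a minus wtsX1Lats.

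CG4998 (3L), a serine protease homologue also listed as SPH66, differed most. It was at 8.52, 8.30 and 8.31 in the double mutant and at 8.30, 8.18 and 8.59 in wtsX1Lats, whereas the rbf120a arrays were at 5.83, 6.75 and 7.53 and those of Canton S at 5.10, 5.54 and 5.49. The rbf120a arrays lay between the other genotypes and overlapped with none. The double mutant exceeded rbf120a by 1.67 ± 0.32 (SE, limma adjusted p = 0.0402), and rbf120a was below wtsX1Lats, at -1.65 ± 0.32 (adjusted p = 0.0337). Without rbf120a replicate 1 these were 1.24 (adjusted p = 0.0731) and -1.22 (adjusted p = 0.0667).

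CG5326 (3R) encodes an enzyme of the ELOVL family, which lengthens very long chain fatty acids. Its arrays were at 10.38, 10.24 and 10.26 in the double mutant, 9.47, 9.33 and 9.42 in rbf120a and 10.42, 10.66 and 10.08 in wtsX1Lats, against 8.33, 8.22 and 7.70 in Canton S. All rbf120a arrays were below those of both genotypes with wtsX1Lats. The double mutant was higher than rbf120a by 0.89 ± 0.17 (SE, limma adjusted p = 0.0453), and the difference of rbf120a from wtsX1Lats was -0.98 ± 0.17 (adjusted p = 0.0233). A second probe set of the gene met the membership rule too, at 1.78, 0.86 and 1.52 above Canton S in the double mutant, rbf120a and wtsX1Lats, while another, dim at a Canton S mean of 4.64, was 0.11, 0.07 and 0.12 above it.

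CG33099 lies 2 places before CG5326 on arm 3R and had a like order of levels, at 8.06, 7.98 and 7.91 in the double mutant, 6.85, 7.35 and 7.31 in rbf120a and 8.33, 8.11 and 7.72 in wtsX1Lats, against 6.79, 6.37 and 6.42 in Canton S. Its differences were 0.81 ± 0.19 for the double mutant minus rbf120a (SE, limma adjusted p = 0.0911) and -0.88 ± 0.19 for rbf120a minus wtsX1Lats (adjusted p = 0.051), so neither passed. The gene between the pair, CG33093, was dim in all groups, at 4.73 ± 0.08 (SD, n = 3) in the double mutant, 4.65 ± 0.06 in rbf120a, 4.67 ± 0.05 in wtsX1Lats and 4.62 ± 0.07 in Canton S.

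CG13046 (3L) was at 9.16, 8.78 and 9.01 in the double mutant, 8.59, 8.40 and 8.65 in rbf120a and 9.28, 9.51 and 9.35 in wtsX1Lats, against 7.95, 7.64 and 8.11 in Canton S. The 4 genotypes did not overlap and ran from wtsX1Lats at the top through the double mutant and rbf120a to Canton S. Of the differences among mutants, rbf120a minus wtsX1Lats passed at -0.83 ± 0.15 (SE, limma adjusted p = 0.0236), while those of the double mutant, 0.44 ± 0.15 above rbf120a and -0.40 ± 0.15 from wtsX1Lats, had adjusted p of 0.351 and 0.519. CG31955 (2L) was also lowest among the mutants in rbf120a, with 7.52, 7.24 and 7.30 in the double mutant, 6.24, 6.53 and 6.80 in rbf120a and 7.94, 7.39 and 7.16 in wtsX1Lats, against 5.98, 6.14 and 5.69 in Canton S. Its differences of 0.83 ± 0.21 (adjusted p = 0.129) and -0.97 ± 0.21 (adjusted p = 0.052) missed the threshold.

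CG32032 (3L) went the other way. It was at 9.08, 9.20 and 9.19 in the double mutant, 10.02, 9.59 and 10.03 in rbf120a and 9.45, 9.33 and 9.14 in wtsX1Lats, against 8.5, 8.33 and 8.55 in Canton S. Each rbf120a array was above each array of the other genotypes. The double mutant was lower than rbf120a, at -0.72 ± 0.14 (SE, limma adjusted p = 0.0418), a call kept in 8 of 20 alternative fits, and rbf120a minus wtsX1Lats was 0.58 ± 0.14 (adjusted p = 0.0786). CG14285 also had its highest mean in rbf120a, at 7.86, against 7.18 in the double mutant and 7.68 in wtsX1Lats, with -0.68 ± 0.27 for the double mutant minus rbf120a (adjusted p = 0.474).

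**Figure D3:**
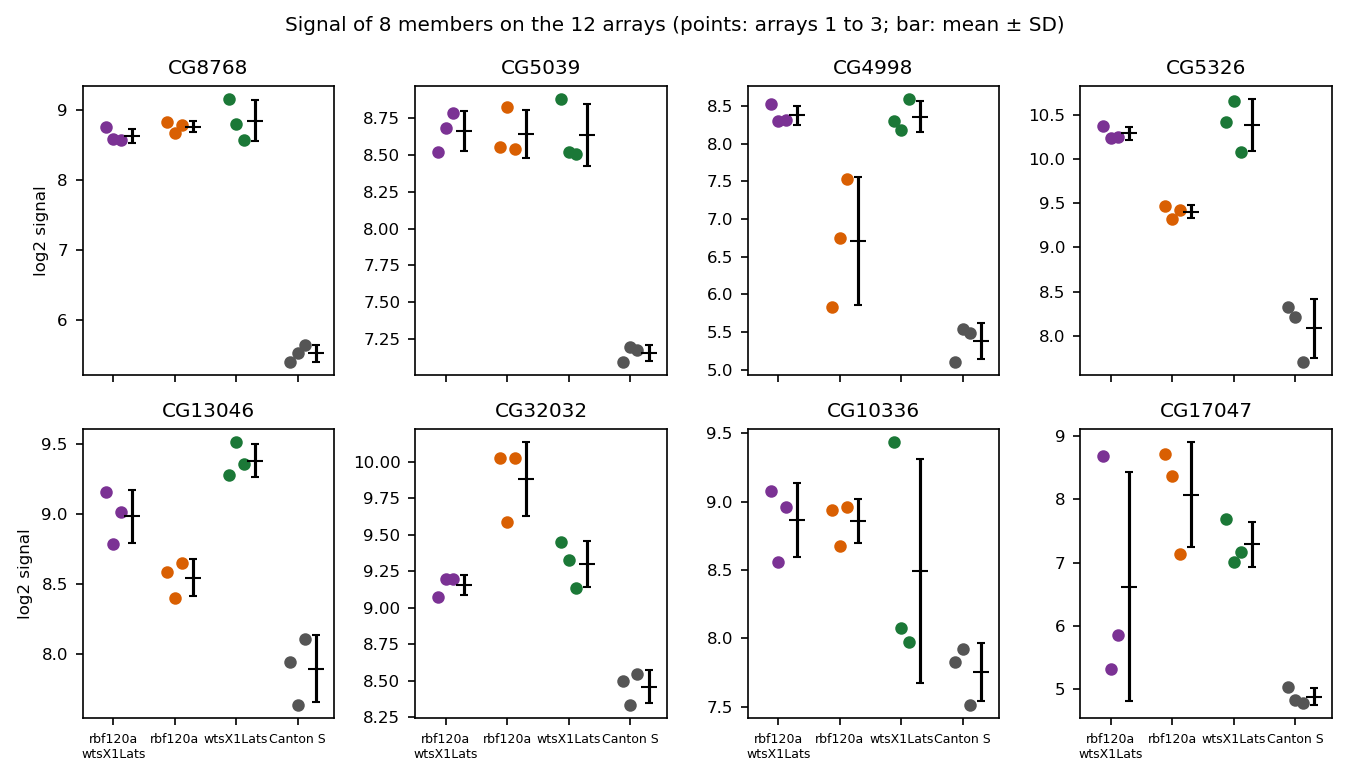
Log2 signal of 8 of the genes on the 12 arrays, with a point per array (replicates 1 to 3 from left to right) and a bar for the mean ± SD of each genotype; each panel has its own axis, which does not start at 0. CG8768 and CG5039 are level across the mutants, CG4998, CG5326 and CG13046 are lowest among mutants in rbf120a, CG32032 is highest there, and for CG10336 and CG17047 single arrays stand apart from their group.

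These calls were few and changed with single arrays. For the double mutant against rbf120a, the count of 3 became 0 without double mutant replicate 2 or 3, rbf120a replicate 1 or Canton S replicate 1. It was 1, a gene among the 3, without rbf120a replicate 2 or 3, wtsX1Lats replicate 2 or Canton S replicate 3. Without double mutant replicate 1 it was also 1, but 0 of the 3 kept their call and another member was called. For rbf120a against wtsX1Lats it became 0 without rbf120a replicate 1 or 2 or wtsX1Lats replicate 2, and 1 without double mutant replicate 3 or rbf120a replicate 3. Leaving out Canton S replicate 2 gave 5 calls, which held all 3 genes. Leaving out either wtsX1Lats replicate 1 or replicate 3 gave 6, which held 2 of the 3 genes in the first case and all 3 in the other. No sign changed in any of these fits for the called genes. The shares of all genes called were not counted in these fits.

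The wtsX1Lats arrays were the most spread. The median SD of the members was 0.16 in the double mutant, 0.16 in rbf120a, 0.36 in wtsX1Lats and 0.17 in Canton S, and wtsX1Lats was the widest of the 4 groups in 28 of 49 genes. Over all genes these medians were 0.08, 0.10, 0.17 and 0.13. Replicate 1 stood at least 0.5 above both other wtsX1Lats arrays in 17 members (34.7%), against 4.43% of all genes, and at least 0.5 below both in 1, against 5.86%. Replicate 2 stood that far above both in 4 members (8.16%), against 0.885% of all genes, and replicate 3 in 1 (2.04%), against 5.42%. Since membership requires every wtsX1Lats array to be high, these shares describe chosen genes, and the step of 0.5 was set after the values were seen.

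CG10336 (2L), the homologue of vertebrate TIPIN, which travels with Timeless at replication forks, is among these 17. It was at 9.08, 8.56 and 8.96 in the double mutant, 8.94, 8.67 and 8.96 in rbf120a and 9.43, 8.07 and 7.97 in wtsX1Lats, against 7.83, 7.92 and 7.51 in Canton S. Replicates 2 and 3 of wtsX1Lats were thus 0.15 and 0.05 above the highest Canton S array, while replicate 1 was the highest array of all. CG7730 was at 8.72, 7.17 and 7.22 in wtsX1Lats, CG3430 at 10.37, 9.08 and 9.08, CG11164 (X) at 9.48, 8.28 and 8.14, and CG14803 (X) at 9.21, 8.20 and 8.39.

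The same array stood apart for DNA replication genes. A list of 49 measured E2F and DNA replication genes, of which 0 are members, had median differences from Canton S of 1.26, 0.34 and 0.37 on the 3 wtsX1Lats arrays, between 0.79 and 1.12 on the double mutant arrays and between 0.95 and 1.03 on the rbf120a arrays. In the fit, 29 of these genes were higher in the double mutant than in Canton S, 23 in rbf120a and 9 in wtsX1Lats, and 0 were lower. The background of higher calls was 2.23%, 1.79% and 2.28% of all genes. A mitosis list (50 measured) and a DNA repair list (42 measured) held 0 members as well, with 11, 4 and 8 and with 10, 7 and 2 genes higher in the same order. Since members carry only CG numbers as symbols, their absence from these lists does not tell whether they act in replication, mitosis or repair. Photoreceptor and cone cell markers were at -1.24, -0.87 and -0.38 on the 3 wtsX1Lats arrays and muscle markers at -1.83, -0.54 and 1.04. Their part in the spread of the members was not tested.

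Among the mutants, 3 of the 49 DNA replication genes were higher in rbf120a than in wtsX1Lats and 0 lower, with a median of 0.24, beside -0.01 over all genes. The double mutant had 0 calls in that list against rbf120a (median 0.00) and 0 against wtsX1Lats (median 0.29). Blood cell markers had 0 calls of 9 among the mutants, with medians of 0.04, 0.01 and -0.03 for the double mutant minus rbf120a, the double mutant minus wtsX1Lats and rbf120a minus wtsX1Lats. Other marker lists had larger differences in these contrasts. The 10 photoreceptor and cone cell markers had medians of -0.65, 0.08 and 0.80 in the same order, with 0 calls, and the 4 muscle markers -0.87, -0.23 and 0.65, with 0 calls. Of the glia and neuroblast markers 1 was lower in the double mutant than in rbf120a and 1 higher in rbf120a than in wtsX1Lats. Of the eye disc markers 2 were higher in the double mutant than in rbf120a and 1 lower in rbf120a than in wtsX1Lats, and 1 of 4 fat body markers was higher in rbf120a than in wtsX1Lats. The part of cell makeup in the calls among the mutants was not tested.

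The members were spread over the genome, with 10 on arm 2L, 7 on 2R, 15 on 3L, 8 on 3R, 9 on the X chromosome and 0 on chromosome 4. On 3L lay 30.6% of the members and 19.9% of all CG-named genes. In the order of protein-coding genes of the RefSeq table, which was used only for names and neighbours since the files name no genome build, consecutive members of an arm were a median of 174.5 places apart. Of 44 such pairs 6 were at most 10 places apart. These distances were not counted over all CG-named genes, so no clustering of the members is read from them. The direct neighbours were CG13041 with CG13060 on 3L and CG13775 with CG3430 on 2L.

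Of the members on 3L, 5 fell in 1 run of 24 genes: CG13046, CG13041, CG13060, CG13059 and CG4998. The run also contains retinin, which encodes a protein of the corneal lens, and the neuropeptide precursor gene Nplp3. It was delimited after the values were seen, and it gets no test as a whole. CG13041 was at 10.76, 10.88 and 10.50 in the double mutant, 10.13, 10.40 and 10.18 in rbf120a and 11.06, 10.37 and 10.44 in wtsX1Lats, against 8.83, 8.41 and 8.41 in Canton S. CG13060, next to it, was far dimmer and even, with mutant means of 6.05, 5.95 and 6.02 and a Canton S mean of 5.25.

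Most other genes of the run were near their Canton S level. Of 16 measured genes that are not members, 12 were within 0.5 of Canton S in all 3 mutants, and some of these were bright, such as CG13044 at a Canton S mean of 12.27. retinin was at 9.80, 9.83 and 9.06 in the double mutant, 6.79, 7.39 and 6.97 in rbf120a and 10.51, 8.62 and 8.11 in wtsX1Lats, against 6.31, 6.33 and 6.35 in Canton S. By limma it was higher in the double mutant (3.24 ± 0.47 SE, adjusted p = 0.00182) and in wtsX1Lats (2.75 ± 0.47, adjusted p = 0.00552) than in Canton S, and in rbf120a the difference was 0.72 ± 0.47 (adjusted p = 0.651). It was also higher in the double mutant than in rbf120a, by 2.52 ± 0.47 (adjusted p = 0.0366). CG4962 was the other called gene of the run, higher in the double mutant than in Canton S by 1.10 ± 0.23 (adjusted p = 0.0149), with 0.78 ± 0.23 (adjusted p = 0.0674) in wtsX1Lats and 0.26 ± 0.23 (adjusted p = 0.812) in rbf120a.

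**Figure D4:**
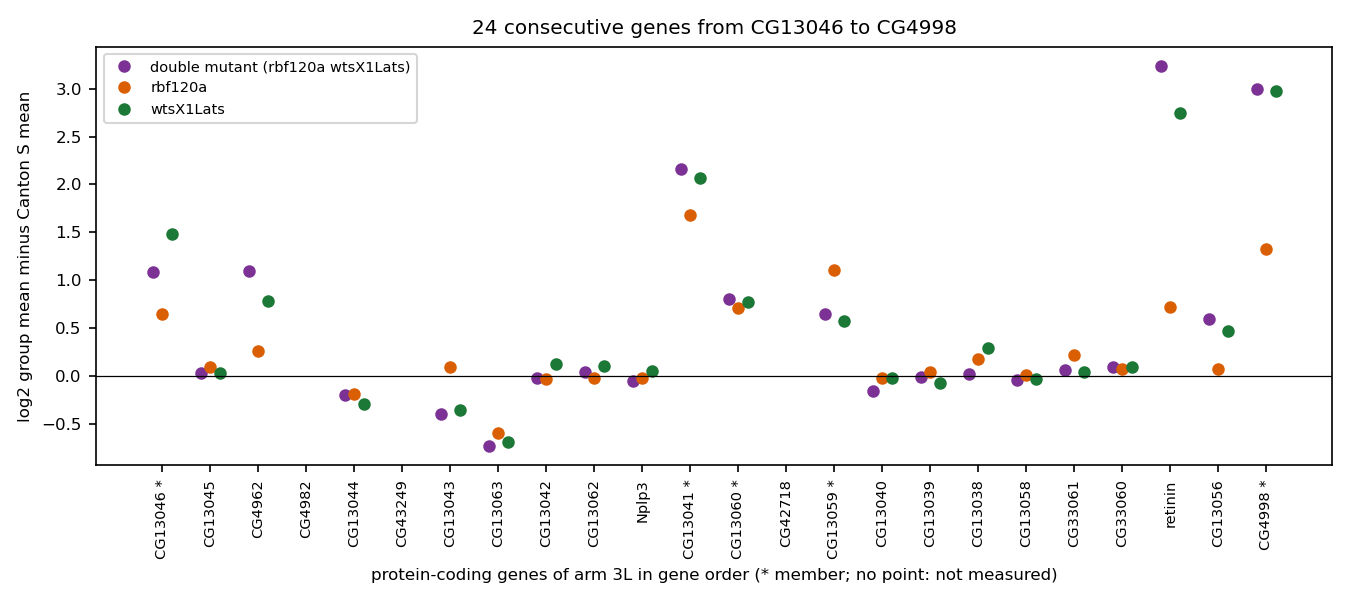
Mean log2 difference from Canton S in the double mutant, rbf120a and wtsX1Lats for 24 consecutive protein-coding genes of arm 3L, in gene order and not to scale in distance; members carry an asterisk and 3 genes had no probe set. Members and retinin stand at 0.57 or more in all 3 genotypes, most genes between them lie near 0, CG13063 lies below it, and rbf120a is the lowest of the 3 for CG13046, CG13041, CG13060, retinin and CG4998.

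Neighbours of the members were read across the genome as well. Of 83 measured neighbours that are not members, 3, 2 and 2 were higher and 4 in each case lower in the double mutant, rbf120a and wtsX1Lats than in Canton S, which is 3.61%, 2.41% and 2.41% higher, against 2.23%, 1.79% and 2.28% of all genes, and 4.82% lower in each, against 3.26%, 1.71% and 3.33%. In either direction 5.49%, 3.51% and 5.61% of all genes were called. Gr64a was higher in all 3 genotypes. The others were cutlet, related to a clamp loader subunit of DNA replication, beside CG31955 (1.52 ± 0.29 SE in the double mutant, limma adjusted p = 0.00969, and 1.65 ± 0.29 in rbf120a, adjusted p = 0.00778), the cohesin gene SA1 beside CG13775 (0.46 ± 0.09 in the double mutant, adjusted p = 0.0122) and the cilium gene BBS8 beside CG13692 (1.12 ± 0.27 in wtsX1Lats, adjusted p = 0.0304).

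The lower neighbours were the same 4 genes in each comparison, all of which share the Canton S arrays: stv, CG5397, Had2 and AdipoR. stv, a co-chaperone gene beside CG10089, was at 7.30 ± 0.18 (SD, n = 3) in the double mutant, 7.50 ± 0.19 in rbf120a and 7.33 ± 0.42 in wtsX1Lats, against 9.80 ± 0.31 in Canton S. CG5397, beside CG42329, differed by -1.81 ± 0.17, -1.35 ± 0.17 and -1.21 ± 0.17 (SE) in the same order (adjusted p = 0.000108, 0.00103 and 0.00205). AdipoR, a receptor gene beside CG5326, was at -0.57, -0.50 and -0.58, and Had2, beside CG12863, at -1.66, -2.04 and -1.67.

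More than 1 probe set was present for 3 members (6.12%) and for 1094 of all genes (9.13%). Beside the second probe set of CG5326, given above, the other probe sets were dim and did not meet the rule. That of CG10089 was 0.06, 0.43 and -0.06 from a Canton S mean of 5.27 in the double mutant, rbf120a and wtsX1Lats, and that of CG42329 was 0.12, 0.10 and 0.10 from 5.11. For the remaining 46 genes the signal of a single probe set is all that these arrays give.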

How the data were processed

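The authors deposited 1 table of log2 values for 18952 probe sets on 12 arrays. Values ran from 3.55 to 14.53, with array medians of 5.76 to 5.86, which fits a normalized log2 scale. How probes were summarised and normalized is not stated in the labels. Per the labels' protocols, RNA was extracted with Trizol, column-purified and labelled with biotin. Genes were named from the platform annotation, 13647 probe sets having 1 gene; the 402 with several were left out. No scanner file or detection call was used, and precision is limited by the 3 arrays per group.

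The fit used limma 3.58.1 (R 4.3.3), with 4 group means over 12 arrays (8 residual degrees of freedom), eBayes with a variance trend, and Benjamini-Hochberg adjustment over 11982 genes, calling adjusted p under 0.05. Every adjusted p is from this fit unless another fit is named beside it. The fit was also run on simulated data, in which each gene had the same spread in all groups. In the real data the wtsX1Lats arrays were the most spread, so that run does not bear on calls against wtsX1Lats. The members and lists were chosen with earlier results of these data known. Named genes were the 16 members with the largest smallest difference, called members, those at the threshold, the brightest and most even, neighbours, and those with several probe sets; further members were named after their values were seen. Alternatives changed the normalization, dim-gene filter, probe set, trend, array weights, arrays and replicate block. Same-numbered arrays of different groups had deviations correlated at -0.298 to 0.311 over genes, above 0.1 in 6 of 18 pairs. For rbf120a and wtsX1Lats all 3 same-numbered pairs were above 0.1 (0.217, 0.301 and 0.216), and the labels give no shared batch. In no other pair of groups were all 3 same-numbered pairs above 0.1. Differently numbered arrays of the double mutant and rbf120a were correlated at up to 0.459, so these values do not settle whether samples were paired. The blocked fit changed none of the 3 calls for rbf120a against wtsX1Lats.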

Additional observations from a re-analysis of the deposited data

Results flagged for a closer look

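Probe sets with no gene in the annotation were outside the main measurement. Of 4720 such probe sets, 32 (0.678%) met the same rule, with every mutant array above every Canton S array and each mutant mean at least 0.5 higher, and 7 of these had a smallest difference of at least 2. The largest smallest difference was 3.79.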

How the results depend on the processing

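The number of CG-named genes that met the rule was 19 with a least difference of 1, 150 on non-overlap alone, 40 to 77 when 1 array was left out, and within 1.5 times 49 for another choice of probe set, quantile normalization, centring and the filter on dim genes. For the double mutant against rbf120a, 3 members called became 1 in the 9 mutant arrays alone, 1 with each array centred on its median, 1 without a variance trend, 6 with array weights, 6 in the 6 arrays alone and 0 to 4 without 1 array. For rbf120a against wtsX1Lats, 3 became 5 after quantile normalization, 5 with the dim-gene filter, 5 without the trend, 15 with array weights, 0 in the 6 arrays alone and 0 to 6 without 1 array. For the double mutant against wtsX1Lats, 0 became 1 with array weights. Shares over all genes were counted for the main fit only, so the counts of called members from other fits have no background beside them. With a replicate block the 3 counts were 2, 3 and 0, and the call that ended was CG32032 (adjusted p = 0.0709). The 6 calls kept their sign in every alternative run. For rbf120a against wtsX1Lats the call was kept in 16 of 21 for CG5326, 14 of 21 for CG13046 and 10 of 21 for CG4998. For the double mutant against rbf120a these were 10 of 20 (CG5326), 9 of 20 (CG4998) and 8 of 20 (CG32032). A fit without wtsX1Lats replicates 1 and 3, added after seeing the data, assumes that the lone wtsX1Lats array varies like the other groups. It called 3 members for rbf120a against wtsX1Lats, of which CG5326 (adjusted p = 0.0269) was 1 of the 3 above, while CG13046 (0.0602) and CG4998 (0.213) lost their calls. The cause was not tested. With 3 arrays a group and no detection calls, levels of dim genes cannot be told from background.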
